A study of Mus musculus with 6 samples.

Results

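Open chromatin at the ends of long noncoding RNA (lncRNA) genes was examined in long-term hematopoietic stem cells (LT-HSCs) of the mouse, with and without mechanical confinement. A peak was taken as a lncRNA-end peak when its midpoint lay within 1 kb of either end of a lncRNA gene of the RefSeq annotation of mm10, and more than 1 kb from both ends of every protein-coding gene. Of the 42632 consensus peaks, 1893 (4.44%) met that rule. The rule used position alone and no measured count. Every group came from C57BL/6 bone marrow of animals 10 to 16 weeks old, sorted as Lin- Sca1+ cKit+ CD34- Flt3-, and was kept in HBSS with serum at 3% O2 and 5% CO2. The unconfined group (3 libraries) was held in that medium for 16 h. The confined group (3 libraries) was held for 13 h, left for 0.5 h to attach to fibronectin-coated glass, and then kept for 2 h beneath a coverslip resting on pillars of 5 µm before release with a dissociation reagent. The 2 groups therefore differed in time in suspension, attachment and detachment as well as in confinement, and these cannot be told apart. The assay, ATAC-seq, reads open DNA through the Tn5 transposase, which inserts sequencing adapters where DNA is not covered by nucleosomes or other proteins.

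LncRNA genes are transcribed, mostly by RNA polymerase II, into long transcripts without a recognised open reading frame. Some of the transcripts act on chromatin, on nuclear bodies or on neighbouring genes, some are processed into small nucleolar RNAs or microRNAs, and for many no role is known. Promoters of transcribed genes are as a rule depleted of nucleosomes and so appear as ATAC-seq peaks, and promoters rich in CpG are often open in many cell types. In blood stem cells the imprinted genes H19 and Meg3 are among the better known of them.

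The 6 libraries were shallow and unequal, with 304898, 1229478 and 983863 counts in peaks for unconfined libraries 1 to 3 and 340922, 221390 and 128257 for confined libraries 1 to 3. Levels are given as CPM, in which each library is scaled to the same total over all peaks, and group values as mean ± SD over the 3 libraries. A level that rests on 3 counts is 9.84, 2.44 and 3.05 CPM in the unconfined and 8.80, 13.6 and 23.4 CPM in the confined libraries. The median lncRNA-end peak had 5, 22 and 15 counts without confinement and 7, 5 and 3 with it, and in confined library 3 no count fell in 152 of the 1893 (8.03%), against at most 51 in any other library. Confined libraries 2 and 3 stood apart. They were also the shallowest, and the part of depth in this was not tested. Across the 1893 peaks, log2(CPM + 1) of the unconfined libraries correlated with each other at Pearson's r of 0.670 to 0.808, with confined library 1 at 0.383 to 0.508, with confined library 2 at 0.0192 to 0.0641 and with confined library 3 at -9.5e-05 to 0.0189, while the confined libraries correlated with each other at 0.0649 to 0.0900. Peaks share each library and its depth, so these values are descriptions only. Among peaks at coding gene ends, those of HSC and progenitor markers averaged 33.8 to 41.4 CPM in the unconfined and 19.1 to 26.7 CPM in the confined libraries over the 8 of 13 genes with such a peak, and none lay at the ends of Ly6a, Gata2, Mecom, Slamf1 or Fli1. B cell markers (3 of 6 genes) averaged 11.2 to 15 and 20.3 to 22.9 CPM, granulocyte and macrophage markers (2 of 8 genes) 10.7 to 16.4 and 18.1 to 39.0 CPM, and erythroid markers (2 of 6 genes) 3.28 to 13.2 and 8.80 to 39.0 CPM. T and NK cell markers (2 of 8 genes) averaged 28.1 to 60.7 and 15.8 to 27.9 CPM, megakaryocyte markers (4 of 4) 38.1 to 47.4 and 23.5 to 39.9 CPM, and stromal and endothelial markers (2 of 7) 11.7 to 24.6 and 15.6 to 24.8 CPM. In bulk samples fewer cells of a type and less open DNA per cell cannot be told apart, and the part of depth, of confined libraries 2 and 3 and of other cell types in the results that follow was not tested beyond the values given beside them.

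Promoters of lncRNA genes on which the results turn are shown first, each 300 bases from 250 before to 50 after the start site that RefSeq lists for GRCm38.p6, 5′ to 3′ on the strand of the gene. Capitals mark matches, on either strand and with overlaps kept, to the letters of 12 motifs. The promoter elements searched were GGGCGG, the GC box bound by SP and KLF proteins. They were also CCACCC, which KLF proteins bind, and CCAAT, bound by the trimer NF-Y. Sites of factors active in blood were CCGGAAG for ETS proteins, TGTGGTT for RUNX proteins and AGATAA for the erythroid and stem cell factors named after it. Signal-linked sites were TGACGT, the core of the cyclic AMP response element, TGANTCA, bound by dimers of FOS with JUN, and CACGTG, the E-box of MYC. The last were GCGCATG, the core that NRF1 binds, TATAAA, which positions the preinitiation complex, and AAGATGG, bound by YY1. A match is a string of letters and not evidence of binding. The first 4 promoters belong to lncRNA-end peaks that were lower after confinement by the test described further on. They are shown because their peaks were called and held a listed start site, and base composition had no part in the choice. Called peaks without a listed start site inside them, such as those of LOC115488769 and Gm52771, were passed over. The 4 run from a CpG-rich promoter, Gm38882 with 69.7% G and C and 40 CpG, to the CpG-poor promoter of Gm32059, with 51.7% and 5 CpG.
Gm38882, chr6:117879383-117879682, plus strand: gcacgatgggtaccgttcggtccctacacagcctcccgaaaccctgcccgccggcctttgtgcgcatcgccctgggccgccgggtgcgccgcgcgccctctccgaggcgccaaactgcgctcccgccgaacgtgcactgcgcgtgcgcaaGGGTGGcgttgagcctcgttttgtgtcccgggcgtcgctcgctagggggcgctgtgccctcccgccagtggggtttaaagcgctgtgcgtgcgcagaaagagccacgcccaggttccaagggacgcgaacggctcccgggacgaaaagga
Gm39000, chr7:43465938-43466237, minus strand: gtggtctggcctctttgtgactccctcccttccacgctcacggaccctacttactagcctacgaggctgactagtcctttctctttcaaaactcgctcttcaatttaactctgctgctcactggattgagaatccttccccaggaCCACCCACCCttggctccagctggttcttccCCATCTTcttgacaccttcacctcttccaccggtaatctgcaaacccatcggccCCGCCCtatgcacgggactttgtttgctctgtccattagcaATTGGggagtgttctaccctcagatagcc
Gm32059, chr7:16045947-16046246, plus strand: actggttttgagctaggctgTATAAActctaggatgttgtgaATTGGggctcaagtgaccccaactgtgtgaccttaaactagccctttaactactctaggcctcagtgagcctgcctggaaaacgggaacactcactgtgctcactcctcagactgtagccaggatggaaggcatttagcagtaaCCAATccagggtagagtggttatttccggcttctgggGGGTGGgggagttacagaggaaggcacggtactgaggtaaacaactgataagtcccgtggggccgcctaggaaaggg
9430083M05Rik, chr4:152325656-152325955, minus strand: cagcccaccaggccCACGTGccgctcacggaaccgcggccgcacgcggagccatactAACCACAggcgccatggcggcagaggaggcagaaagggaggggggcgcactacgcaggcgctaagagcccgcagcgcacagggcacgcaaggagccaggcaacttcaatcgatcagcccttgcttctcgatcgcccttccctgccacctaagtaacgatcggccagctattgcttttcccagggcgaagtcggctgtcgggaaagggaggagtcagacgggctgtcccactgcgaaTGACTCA

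The next 4 promoters belong to lncRNA-end peaks that were higher after confinement. They were chosen in the same way. They hold 48.0%, 53.7%, 52.0% and 68.7% G and C and 2, 6, 4 and 22 CpG in the order given.
Gm46178, chr1:191120652-191120951, plus strand: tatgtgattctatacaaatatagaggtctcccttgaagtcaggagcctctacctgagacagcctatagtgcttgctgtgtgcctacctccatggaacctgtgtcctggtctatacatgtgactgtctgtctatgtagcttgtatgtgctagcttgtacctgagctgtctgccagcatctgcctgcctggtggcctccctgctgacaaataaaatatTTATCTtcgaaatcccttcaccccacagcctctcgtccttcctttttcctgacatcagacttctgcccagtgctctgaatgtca
Gm34349, chr3:122480178-122480477, minus strand: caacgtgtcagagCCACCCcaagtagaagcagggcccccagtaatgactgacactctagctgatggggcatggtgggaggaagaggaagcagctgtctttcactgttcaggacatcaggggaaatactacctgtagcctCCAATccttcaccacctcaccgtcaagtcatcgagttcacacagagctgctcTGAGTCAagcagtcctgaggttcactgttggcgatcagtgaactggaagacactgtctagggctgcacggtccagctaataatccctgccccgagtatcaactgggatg
1700127F24Rik, chr12:112875777-112876076, minus strand: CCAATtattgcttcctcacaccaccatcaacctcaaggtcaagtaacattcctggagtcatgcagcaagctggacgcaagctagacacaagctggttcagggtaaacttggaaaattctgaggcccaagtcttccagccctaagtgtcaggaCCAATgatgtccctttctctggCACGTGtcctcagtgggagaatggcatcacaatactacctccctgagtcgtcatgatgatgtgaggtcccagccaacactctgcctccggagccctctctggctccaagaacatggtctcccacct
Gm41167, chr14:61037687-61037986, plus strand: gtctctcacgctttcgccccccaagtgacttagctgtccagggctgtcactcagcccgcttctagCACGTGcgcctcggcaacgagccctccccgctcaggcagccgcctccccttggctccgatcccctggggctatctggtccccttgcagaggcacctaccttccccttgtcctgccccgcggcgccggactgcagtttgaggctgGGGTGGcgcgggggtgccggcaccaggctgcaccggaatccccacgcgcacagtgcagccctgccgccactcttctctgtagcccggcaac

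The last 3 were picked after their values were seen, for their high level in unconfined cells. Mir22hg is the host gene of miR-22, Snhg8 hosts a small nucleolar RNA, and 2700012I20Rik had the highest lncRNA-end peak. All 3 hold the GC box (2, 4 and 2 matches) and the NF-Y letters (2, 1 and 5 matches).
Mir22hg, chr11:75461289-75461588, plus strand: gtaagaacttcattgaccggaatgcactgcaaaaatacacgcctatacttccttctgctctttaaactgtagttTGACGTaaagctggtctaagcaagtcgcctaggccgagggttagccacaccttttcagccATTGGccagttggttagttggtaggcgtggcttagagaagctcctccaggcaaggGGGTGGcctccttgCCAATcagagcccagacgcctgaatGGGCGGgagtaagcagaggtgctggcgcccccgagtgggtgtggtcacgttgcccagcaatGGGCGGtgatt
Snhg8, chr3:123508287-123508586, minus strand: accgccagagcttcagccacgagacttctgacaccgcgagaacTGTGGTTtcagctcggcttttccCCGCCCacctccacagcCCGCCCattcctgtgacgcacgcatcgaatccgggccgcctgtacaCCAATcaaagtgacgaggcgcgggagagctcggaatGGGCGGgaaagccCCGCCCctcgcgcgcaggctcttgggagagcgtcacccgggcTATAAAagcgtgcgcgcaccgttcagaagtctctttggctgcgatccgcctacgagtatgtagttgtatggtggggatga
2700012I20Rik, chr9:57076000-57076299, minus strand: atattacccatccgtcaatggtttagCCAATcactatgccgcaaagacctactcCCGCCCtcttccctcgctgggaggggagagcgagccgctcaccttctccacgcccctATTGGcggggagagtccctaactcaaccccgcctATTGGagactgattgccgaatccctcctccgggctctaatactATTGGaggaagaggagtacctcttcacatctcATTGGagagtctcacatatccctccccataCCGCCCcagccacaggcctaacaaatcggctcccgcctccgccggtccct

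The 1893 peaks had 1755 different lncRNA genes as their nearest, out of 12731 in the annotation, and each peak was 700 bp wide. A further 1220 peaks lay within 1 kb of a lncRNA end but also within 1 kb of one of the 21900 coding genes and were left out by the rule. The lncRNA-end peaks were spread over 20 chromosomes, with most on chromosome 2 (156, or 4.74% of its peaks) and fewest on the X chromosome (23, or 2.65%). By the strand of the gene, 1071 lay nearest the start (the start side), 393 nearest the 3′ end, and for 429 the sequence table listed no strand. For 714 peaks a listed start site fell inside the peak. A coding gene body contained 642 of the peaks (33.9%), and the median distance to the nearest coding gene end was 18805.5 bp, with 669 peaks within 10 kb and 443 beyond 50 kb. Most nearest genes carried only a provisional symbol (Gm, Rik or LOC, 1787 peaks), and 106 peaks had another symbol, 31 of them ending in "os" for opposite strand. The genes of these 106 are called named lncRNA genes below, although symbols such as C86187 and AA465934 among them are not descriptive names. Peaks that share a nearest gene numbered 269 and are not independent of each other.

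In unconfined cells the lncRNA-end peaks were ordinary peaks by level. Their median was 15.9 CPM, beside 27.5 CPM at coding gene ends and 14.1 CPM at the 29466 peaks near neither kind of end, and 179 of them (9.46%) fell in the top 10% of all peaks. The start side was the higher one, with a median of 17.5 CPM and 127 peaks (11.9%) in the top 10%, against 14.2 CPM and 19 peaks (4.83%) at the 3′ end. Peaks of the named lncRNA genes were higher again, with a median of 25.6 CPM and 27 of 106 (25.5%) in the top 10%. Levels changed little across the distance limit of the rule: the 116 peaks at 0.9 to 1 kb had a median of 14.3 CPM and the 109 peaks just outside, at 1 to 1.1 kb, one of 15.6 CPM.

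The share of all counts that fell in lncRNA-end peaks ranged only from 4.26 to 4.40% over the libraries. It was 4.26%, 4.34% and 4.28% without confinement and 4.40%, 4.33% and 4.40% with it (95% Clopper-Pearson intervals from 4.19 to 4.33% for unconfined library 1 and from 4.29 to 4.51% for confined library 3, which cover counting error only). The group values were 4.29 ± 0.0440% and 4.38 ± 0.0415%, and the difference was 0.0840 percentage points, or 0.112 with only confined library 1 kept. Within the experimental batches, which pair the libraries, it was 0.144, -0.0137 and 0.121 points, so the groups overlapped and batch 2 went the other way. The share at coding gene ends, in contrast, was 40.9 ± 2.25% in unconfined and 26.3 ± 4.06% in confined cells, and at all other peaks 54.8 ± 2.21% and 69.3 ± 4.08%. The flat share depends on the window, since with a limit of 0.5 kb the difference was -0.0509 points and with 2 kb it was 0.314 points.

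Behind the flat share, the classes of lncRNA-end peaks differed between groups in opposite directions. Relative abundance, the share of counts in a class divided by its share of peaks, is 1 where a class holds as many counts as the average peak. On the start side it was 1.06 to 1.08 in the unconfined and 0.982 to 1.04 in the confined libraries (1.06 ± 0.0101 and 1.01 ± 0.0298), so the groups did not overlap. At the 3′ end it was 0.761 to 0.835 and 0.925 to 1.01 (0.789 ± 0.0399 and 0.971 ± 0.0443), again without overlap and in the opposite direction. The 106 peaks of named lncRNA genes had the highest value among the lncRNA classes in unconfined cells, 1.41 ± 0.0395, and 1.06 ± 0.0727 in confined cells. Where a coding end was near, at 1 to 10 kb, it was 1.1 and 0.985, and beyond 50 kb it was 0.845 and 0.975. Peaks inside coding gene bodies went from 1.06 to 0.95 and those outside from 0.921 to 1.00. For the start side, the 3′ end, the named genes and both distance classes the confined means lay closer to 1 than the unconfined ones. At 1 to 10 kb from a coding end and inside coding genes the means passed to the other side of 1. Inside coding genes they stayed about as far from 1 (1.03 to 1.07 and 0.912 to 1.00 over the libraries). Coding gene ends went from a higher level to near 1 (1.55 ± 0.0850 and 0.994 ± 0.154), and the 1220 peaks at a lncRNA end and a coding end together had 1.75 and 1.00. The 29466 peaks near neither kind of end had 0.792 ± 0.0320 and 1.00 ± 0.0591 without overlap, much like the 3′-end lncRNA peaks. Just inside and just outside the 1 kb limit the values were 0.870 and 0.869 in unconfined and 0.959 and 0.960 in confined cells.

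**Figure D1:**
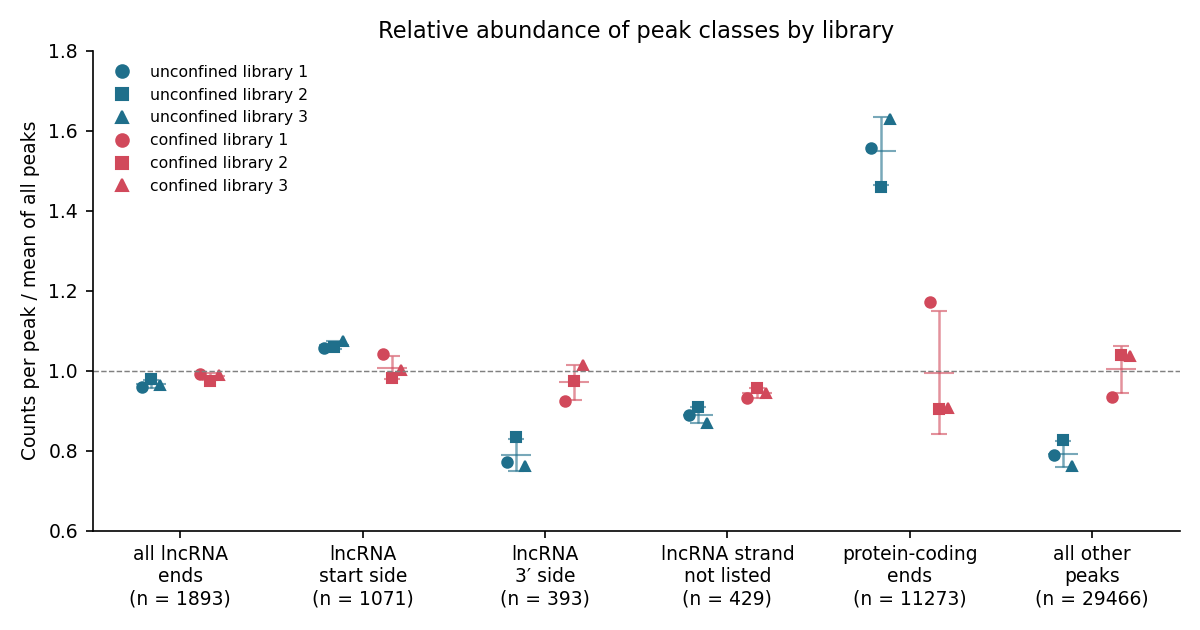
Relative abundance (share of counts over share of peaks, no unit) of classes of peaks, for 3 unconfined and 3 confined libraries (points), with mean and SD as bars. Start-side lncRNA peaks have 1.06 in unconfined and 1.01 in confined cells, and 3′-end peaks have 0.789 and 0.971.

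The contrast between lncRNA-end peaks ranked high and low in unconfined cells was smaller in every confined library. Peaks were ranked by unconfined libraries other than the one read, and the summed counts of the highest 189 were divided by those of the lowest 189. The ratio was 7.71, 4.62 and 7.71 without confinement and 2.49, 1.09 and 1.07 with it (6.68 ± 1.78 and 1.55 ± 0.815), with no overlap. In confined libraries 2 and 3 the peaks that were highest in unconfined cells thus held about as many counts as the lowest. The ratio was 9.07 ± 2.48 and 1.95 ± 1.29 at coding ends and 4.92 ± 1.21 and 1.53 ± 0.782 at other peaks. By this measure the contrast was smaller in those classes as well. No ranks were taken from confined libraries, so the contrast among peaks within a confined library was not measured.

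**Figure D2:**
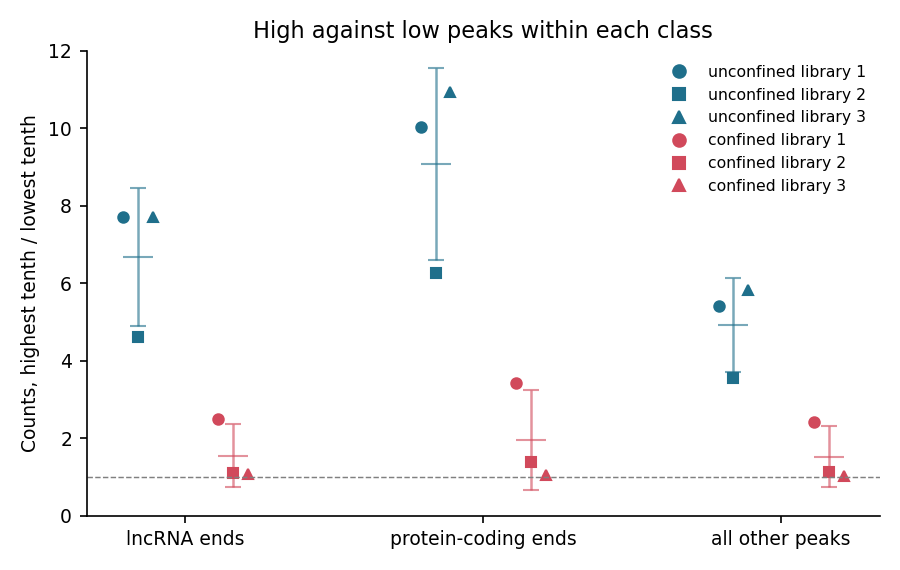
Ratio of summed counts in the highest 10% of peaks to those in the lowest 10% (no unit), ranked in other unconfined libraries, with 1 point per library and the mean and SD as bars, for lncRNA-end, coding-end and other peaks. Among lncRNA-end peaks the unconfined libraries lie at 4.62 to 7.71 and the confined ones at 1.07 to 2.49.

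The G and C content of the promoter went with the level in unconfined cells, whereas in confined libraries 2 and 3 the correlation was negative. The 714 promoters whose start site lay in a lncRNA-end peak had a median of 53.3% G and C and 8 CpG, between the 11588 lncRNA promoters listed in all (48.3%, 4 CpG) and the 21263 coding promoters (56.3%, 13 CpG). The 195 with at least 60% G and C had a relative abundance of 1.46 ± 0.0617 in unconfined and 0.957 ± 0.106 in confined cells. The 83 below 45% had 0.719 ± 0.0367 and 0.974 ± 0.137. The order by G and C content was therefore steep in unconfined cells and absent in the confined means. Over the 714 peaks the correlation of G and C percent with log2(CPM + 1) was 0.266, 0.251 and 0.251 in the unconfined libraries and 0.0262, -0.226 and -0.117 in confined libraries 1 to 3. The peaks share each library's depth, so these values are descriptions. Of the 195 richest in G and C, 69 (35.4%) were lower and 15 (7.69%) higher in all confined than in all unconfined libraries, against 13.2% and 16.8% of all 42632 peaks.

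**Figure D3:**
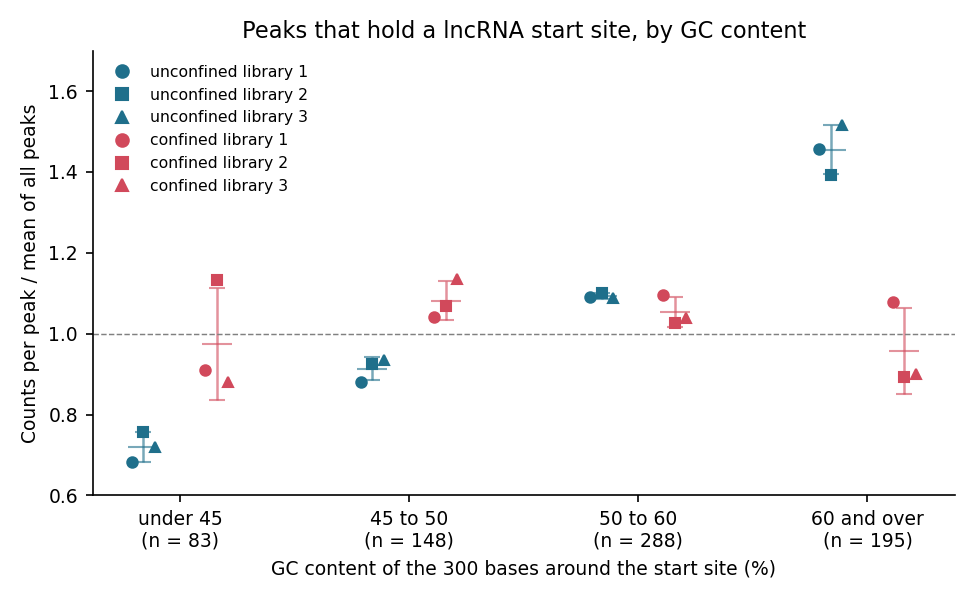
Relative abundance (no unit) of 714 lncRNA-end peaks that hold a listed start site, in bins of the G and C percent of the promoter, with 1 point per library and the mean and SD as bars. Unconfined libraries rise from 0.719 on average below 45% to 1.46 at 60% and over, and confined means stay between 0.957 and 1.08.

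The motifs in the 714 promoters were compared with those in all 32851 listed promoters. The GC box was in 35.0% of the 714 and 35.7% of all, but in 16.3% of all lncRNA promoters and 46.2% of coding ones. The KLF letters were in 34.2% and 31.5%, the NF-Y letters in 32.2% and 37.4%, and the letters TATAAA in 10.4% and 13.6%. Motifs of factors with known roles in blood gave 8.12% and 5.27% for RUNX, 9.52% and 11.2% for GATA, and 7.0% and 8.86% for ETS. The FOS and JUN site was in 11.8% and 7.81%, the E-box in 11.1% and 7.15%, the cyclic AMP response element core in 8.54% and 7.51%, the YY1 site in 6.44% and 6.34%, and the NRF1 core in 4.2% and 3.91%. Peaks whose promoter holds the GC box (250) had a relative abundance of 1.45 ± 0.0515 in unconfined and 0.999 ± 0.112 in confined cells, while the other 464 had 0.927 and 1.04. Promoters with the ETS letters (50) had 1.42 and 1.08, and those with the RUNX letters (58) had 1.37 and 1.12. GATA went the other way, with 0.833 and 1.08 over 68 promoters, and the FOS and JUN site (84) had 0.996 and 1.05. For the other 7 motifs the values were 1.1 to 1.28 in unconfined and 0.982 to 1.03 in confined cells. The GC box and the ETS letters are themselves rich in G and C, so they overlap with the split by base composition.

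LncRNA genes with described roles were taken from lists of 67 genes, of which 61 were lncRNA genes in the annotation. A lncRNA-end peak lay at 32 of them (38 peaks), 8 had peaks only where a coding end was also within 1 kb (Gas5, Snhg1, Snhg6, Snhg10, Snhg18, Zfas1, Tug1 and Hoxaas3), and 21 had no peak within 1 kb, including the imprinted H19, Meg3 and Rian, the miR-17 cluster host Mir17hg, and Hotair and Hottip of the HOX clusters. The 38 peaks averaged 36.9 ± 1.1 CPM unconfined and 24.8 ± 3.87 CPM confined. In 7 of the 38 all confined libraries were lower than all unconfined ones, and in 4 all were higher. Over all 42632 peaks 13.2% were lower and 16.8% higher in that way, and no difference from other peaks is read from these counts. Of these peaks 14 had counts enough for the test between groups, 1 was higher and none was lower by edgeR at an adjusted p under 0.05, against 5.79% and 2.42% of all 9084 peaks tested. DESeq2, fitted to the same filtered peaks, called the same peak, at Trp53cor1, and no other. At an unadjusted p under 0.05 by edgeR 2 were lower (Snhg8 and Mir22hg) and 2 higher (Trp53cor1 and Hotairm1). No share of all tested peaks at that threshold is given here, so nothing about the listed genes is read from them. The median log2 fold change of the 14, confined over unconfined, was -0.29, beside -0.02 for all tested peaks. CPM and fold change are on different scales here: edgeR's composition scaling (TMM) set the median of all tested peaks to -0.02, whereas scaling by total counts alone put it at -0.68, so a fall in CPM can appear with a small fold change.

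Hosts of small nucleolar RNAs, which guide the modification of ribosomal RNA and are cut from the introns of these genes, made up the largest listed group. A lncRNA-end peak lay at 13 of 19 of them, with 43.5 ± 0.477 CPM unconfined and 26.4 ± 7.06 CPM confined, and of the 7 tested none was higher or lower by edgeR. Snhg8 was the highest, with 42, 131 and 122 counts in the unconfined and 16, 10 and 1 in the confined libraries, or 123 ± 15.6 and 33.3 ± 22.1 CPM. The groups did not overlap in CPM, and the log2 fold change was -0.97 (SE 0.37, adjusted p 0.0879 by edgeR). Snhg16 had 16, 77 and 64 counts against 12, 9 and 3 (60.1 ± 6.67 and 33.1 ± 8.82 CPM) and also did not overlap, with a log2 fold change of -0.18 (SE 0.35, adjusted p 0.789 by edgeR). Snhg9, inside the body of the ribosomal protein gene Rps2, had 15, 77 and 63 against 13, 5 and 1 counts (58.6 ± 8.19 and 22.8 ± 15.2 CPM), without overlap. For Snhg5 (49.7 ± 7.14 and 27.9 ± 17.1 CPM), Dancr (49.2 ± 5.88 and 29.2 ± 28.6 CPM) and Snhg15 (38.2 ± 3.22 and 17.2 ± 19.3 CPM) the spread among confined libraries was so wide that the groups overlapped. Epb41l4aos, Snhg3, Snhg4, Snhg7, Snhg12, Snhg17 and Snhg20 overlapped as well, at 23.2 to 35.2 CPM unconfined and 7.37 to 35.4 CPM confined.

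Hosts of microRNAs had a lncRNA-end peak at 5 of 15 genes (6 peaks), with 48.5 ± 5.26 CPM unconfined and 22.5 ± 6.41 CPM confined, and of the 2 tested none was higher or lower. Mir22hg, whose promoter is printed above, had 47, 167 and 163 counts in the unconfined and 20, 6 and 5 in the confined libraries. That is 152 ± 15.1 and 41.6 ± 15.9 CPM with no overlap, a log2 fold change of -1.11 (SE 0.38) and an adjusted p of 0.0556 by edgeR. It passed the threshold when confined library 1 was left out (adjusted p 0.0142 by edgeR) or when confined library 3 was (0.0184). Scaling by total counts only also gave a pass (0.0186 by edgeR), whereas DESeq2 did not call it. The other Mir22hg peak, centred 936.5 bp from the start, had 5, 35 and 48 against 11, 1 and 0 counts. Its groups overlapped, and its counts were too low for the test. Mirg, of the Dlk1-Dio3 imprinted microRNA cluster, had 16, 65 and 58 counts against 13, 4 and 1 (54.8 ± 3.63 and 21.3 ± 15.4 CPM), with no overlap and a log2 fold change of -0.45 (SE 0.38, adjusted p 0.485 by edgeR). Mir99ahg went the other way, with 6, 25 and 11 against 7, 6 and 3 counts (17.1 ± 5.11 and 23.7 ± 3.29 CPM) and no overlap, at counts too low for the test. Mir155hg, the host of a microRNA of activated lymphoid and myeloid cells, was near the floor with 0, 12 and 11 against 5, 5 and 1 counts. Dleu2, which hosts miR-15a and miR-16-1, had 8, 37 and 31 against 5, 2 and 5 counts, and its groups overlapped.

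At imprinted domains, 4 of 10 listed genes had a lncRNA-end peak (36.7 ± 1.52 and 21.8 ± 10.6 CPM), and of the 2 tested none was higher or lower. Kcnq1ot1, the antisense RNA that silences genes of the Kcnq1 domain on the paternal chromosome, had 15, 67 and 48 counts in the unconfined and 20, 5 and 2 in the confined libraries (50.8 ± 3.18 and 32.3 ± 23.1 CPM). In confined library 1 its level was as high as in unconfined cells, and the log2 fold change of 0.22 (SE 0.35, adjusted p 0.738 by edgeR) changed sign with other scalings. Airn, which silences Igf2r, had 6, 18 and 12 against 7, 3 and 1 counts, and Peg13 had 7, 39 and 22 against 6, 4 and 3. Their groups overlapped.

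Genes of X inactivation and nuclear architecture had a lncRNA-end peak at 5 of 10 (7 peaks), with 35.1 ± 2.46 CPM unconfined and 25.9 ± 0.798 CPM confined, and of the 2 tested none was higher or lower. Neat1, the scaffold RNA of paraspeckles, was the highest, with 27, 113 and 104 counts against 17, 6 and 5 (95.4 ± 9.09 and 38.7 ± 11.4 CPM). Its groups did not overlap, and the log2 fold change was -0.61 (SE 0.34, adjusted p 0.255 by edgeR). Malat1, a nuclear speckle RNA, gave 3 peaks that did not go the same way. The peak centred 94.5 bp from its start had 1, 18 and 15 against 4, 6 and 1 counts and overlapped between groups. A second start-side peak, 771.5 bp away, had 19, 59 and 65 against 8, 7 and 2 counts and was lower in CPM in all confined libraries (log2 fold change -0.56, adjusted p 0.368 by edgeR). The peak 545.5 bp from its 3′ end had 3, 10 and 7 against 8, 5 and 4 counts, or 8.36 and 25.7 CPM, and was higher in all confined libraries, at counts too low for the test. Xist, which coats the inactive X chromosome, had 9, 22 and 12 against 1, 7 and 6 counts, its activator Jpx 9, 34 and 32 against 10, 7 and 2, and Firre, which tethers the X chromosome near the nucleolus, 5, 30 and 26 against 12, 2 and 4. For Xist, Jpx and Firre the groups overlapped and the order changed from library to library.

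In the HOX clusters only Hotairm1 of 10 listed genes had a lncRNA-end peak, which also lay within 1 kb of an end of Hotairm2. Hotairm1 is best known for its induction in myeloid differentiation. It had 10, 31 and 24 counts in the unconfined and 13, 8 and 6 in the confined libraries, or 27.5 ± 4.63 and 40.3 ± 5.66 CPM. All confined libraries lay above all unconfined ones, with a log2 fold change of 1.25 (SE 0.42) and an adjusted p of 0.053 by edgeR, just outside the threshold. Without confined library 1 the adjusted p was 0.0489 by edgeR, and when scaled by total counts only the log2 fold change was 0.59. The peak entered the test through the confined libraries (38.1, 36.1 and 46.8 CPM). The filter on low counts asked for about 31.0 CPM in 3 libraries, and of the unconfined ones only library 1 reached it (32.8 CPM).

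Among lncRNAs of the p53 and stress response, 4 of 6 genes had a lncRNA-end peak (6 peaks, 33.1 ± 1.47 and 24.4 ± 3.21 CPM), and of the 2 tested 1 was higher. Trp53cor1 (lincRNA-p21), a p53 target upstream of Cdkn1a, gave 3 peaks. The peak 27.5 bp from a gene end had 9, 35 and 28 counts against 4, 7 and 2 and overlapped between groups. The peak 657.5 bp from a gene end, at chr17:29057782-29058481, had 7, 19 and 16 counts against 16, 7 and 4 (18.2 ± 4.12 and 36.6 ± 8.97 CPM) and rose, with a log2 fold change of 1.81 (SE 0.50, adjusted p 0.0174 by edgeR). Without confined library 2 its adjusted p was 0.0817 and without unconfined library 1 it was 0.0682 by edgeR. It was singled out after its values were seen. The filter on low counts asked for about 31.0 CPM in 3 libraries. This peak entered the test through the confined libraries alone, with 46.9, 31.6 and 31.2 CPM there. In the unconfined libraries it had 23.0, 15.5 and 16.3 CPM, so the call is no independent sign of a rise. The remaining peak, which lies 521.5 bp from an end of the lncRNA gene Gm41556 and also within the limit of Trp53cor1, had 5, 29 and 17 counts against 8, 3 and 1 and overlapped between groups. Lncpint, another p53 target, had 12, 32 and 18 against 9, 5 and 3 counts, and Pvt1, the neighbour of Myc, 3, 17 and 3 against 1, 6 and 1, both with overlap.

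Genes with described roles in blood cells had a lncRNA-end peak at 10 of 14 (14 peaks, 31.9 ± 3.39 and 23.2 ± 2.72 CPM), and of the 3 tested none was higher or lower. Morrbid, which sets the lifespan of short-lived myeloid cells by repressing Bcl2l11, had 2, 26 and 19 counts against 9, 13 and 2 (15.7 ± 7.95 and 33.6 ± 22.4 CPM), with overlap. Lockd, just downstream of the cell cycle inhibitor Cdkn1b, had 7, 73 and 62 against 5, 5 and 3 counts. Its level in unconfined library 1 was as low as in confined cells, so the groups overlapped at 48.5 ± 22.2 and 20.2 ± 4.82 CPM.

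**Figure D4:**
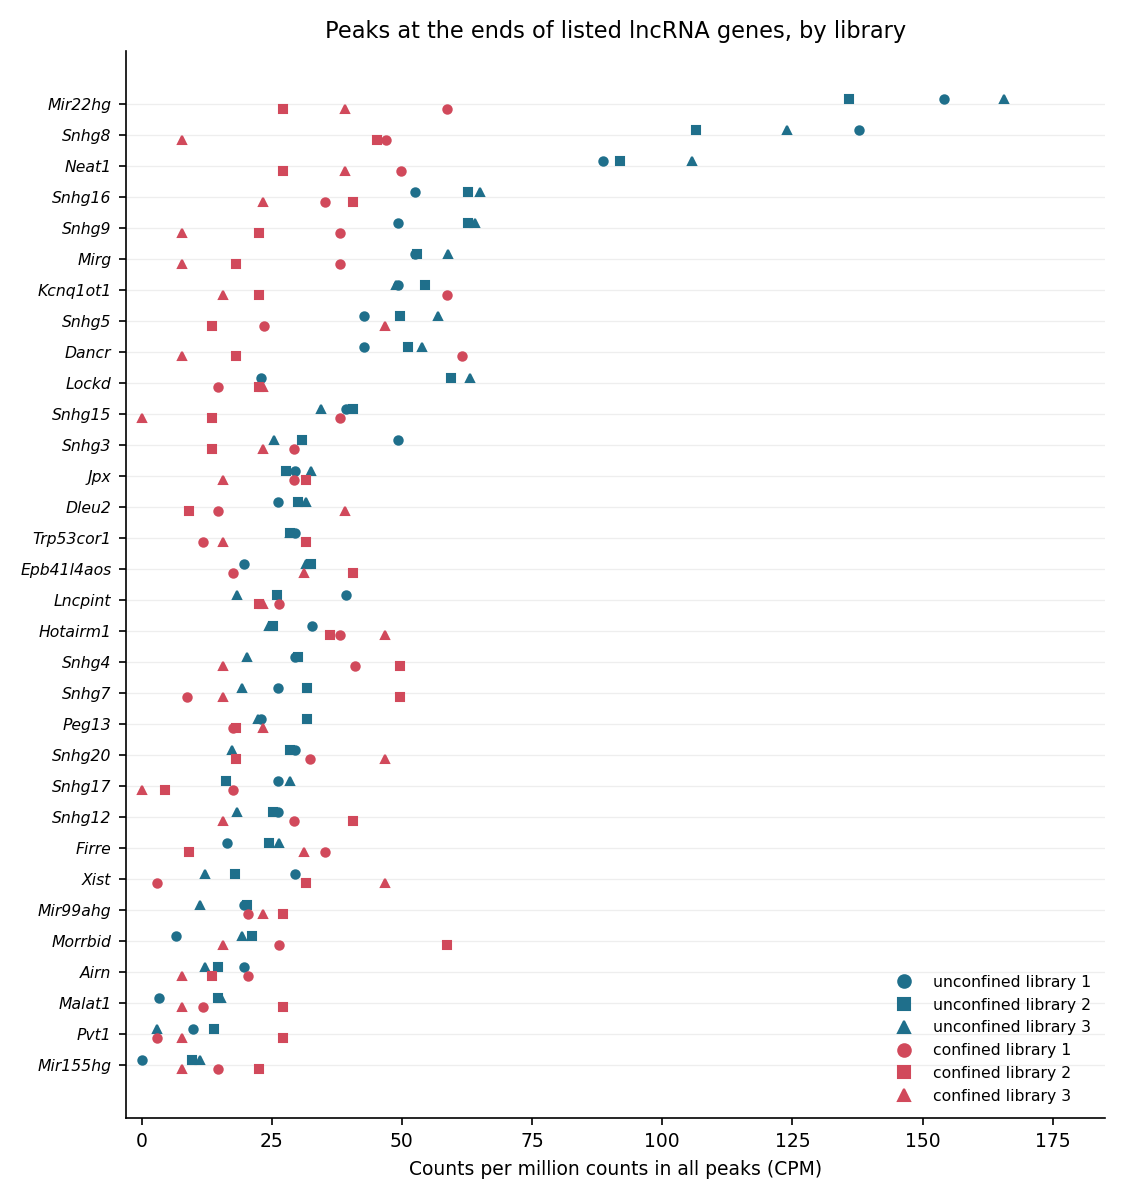
Level (CPM) of the lncRNA-end peak nearest to a gene end for 32 listed lncRNA genes, 1 point per library, ordered by the unconfined mean. Mir22hg, Snhg8 and Neat1 are the highest in unconfined cells and lower in all confined libraries, and Hotairm1 is higher in all 3.

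Of the 1893 lncRNA-end peaks, 386 passed edgeR's filter on low counts, as did 9084 of all peaks, and 21 of them rose and 8 fell after confinement at an adjusted p under 0.05 by edgeR. These are 5.44% and 2.07% of the 386, beside the 5.79% and 2.42% of all peaks tested, and no difference from other peaks is read from them. The filter asked for about 31.0 CPM in 3 libraries. Of the 21 peaks that rose, 16 reached that level in all confined libraries and at most 1 unconfined one, so they entered the test through the group in which they were high, and all 8 that fell reached it in every unconfined library. Over all 1893 peaks, without any filter, 321 (17%) were higher and 235 (12.4%) lower in all confined than in all unconfined libraries, again near the 16.8% and 13.2% of all 42632 peaks. By class, 19.1% of the 3′-end peaks were higher and 7.63% lower, while on the start side 16.5% were higher and 14.8% lower. Nothing in the labels says whether the libraries came from separate animals, so the p-values measure the spread between these libraries.

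The peaks that fell were high in unconfined cells, at 63.6 to 110 CPM, and lay at 12.9 to 23.6 CPM in confined cells, where 3 counts are worth 8.80 to 23.4 CPM by library. The filter on low counts lets a peak that is low in confined cells into the test only if it is high in the unconfined ones. In 7 of the 8 the gene start was the nearer end, 5 lay inside a coding gene, and no groups overlapped. Gm38882, 6904.5 bp from the zinc finger gene Zfp239, fell most, at a peak also within 1 kb of an end of the lncRNA gene Gm38883. Its peak at chr6:117879321-117880020, centred 37.5 bp from the CpG-rich start, had 34, 115 and 118 counts in the unconfined and 4, 4 and 2 in the confined libraries. That is 108 ± 13.5 and 15.1 ± 3.19 CPM, with a log2 fold change of -2.21 (SE 0.43, adjusted p 0.0011 by edgeR), and it was called lower under every alternative fit tried, including the fit that kept only confined library 1 (-3.39, adjusted p 0.0321 by edgeR).

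The next by p lay at LOC115488769 inside Pkd1, which encodes polycystin, with 33, 125 and 103 counts against 10, 5 and 2 (105 ± 3.29 and 22.5 ± 6.87 CPM). Its log2 fold change was -1.43 (SE 0.38, adjusted p 0.0129 by edgeR). Gm39000 inside Vsig10l had 34, 97 and 97 against 12, 2 and 1 counts, with a log2 fold change of -1.45 (SE 0.39, adjusted p 0.0163 by edgeR). Gm32059 inside Bicra, which encodes a subunit of a SWI/SNF chromatin remodelling complex, had 30, 85 and 97 against 8, 3 and 3 counts (88.7 ± 16.9 and 20.1 ± 5.70 CPM), and fell by 1.42 on the log2 scale (SE 0.39, adjusted p 0.0175 by edgeR). In each of these confined library 1 held the most confined counts (10, 12 and 8), and libraries 2 and 3 held at most 5. 9430083M05Rik, inside the ribosomal protein gene Rpl22, had 16, 90 and 72 against 7, 4 and 0 counts and a log2 fold change of -1.49 (SE 0.44, adjusted p 0.0267 by edgeR). Gm36315, Gm52285 inside the splicing factor gene Srrm2, and 4833417C18Rik passed near the threshold, with log2 fold changes of -1.38, -1.18 and -1.18 and adjusted p of 0.0447, 0.0477 and 0.0489 by edgeR. The peak of 4833417C18Rik also lay within 1 kb of an end of the lncRNA gene Gm38959.

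With the experimental batch as a replicate block, 18 lncRNA-end peaks rose and 3 fell (5.24% and 0.815% of all tested), and all of them were among those of the fit without it. The 3 that fell were Gm38882, Gm39000 and Gm32059, while LOC115488769 moved to an adjusted p of 0.0557 by edgeR.

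The peaks that rose had 8.74 to 35.5 CPM in unconfined and 31.7 to 143 CPM in confined cells, levels that the filter largely set, since 16 of the 21 entered the test through the confined libraries. With no filter 17 lncRNA-end peaks (0.898%, beside 1.47% of all peaks) were called higher by edgeR, and 5 of the 21 were among them. The start was the nearer end in 15, the 3′ end in 3, and for 3 the strand was not listed. Gm52771, 2103.5 bp from Pisd, whose product makes phosphatidylethanolamine in mitochondria, had 11, 39 and 5 counts against 32, 17 and 17. Its level was 24.3 ± 16.8 and 101 ± 28.6 CPM without overlap, and the log2 fold change was 2.77 (SE 0.38, adjusted p 1.05e-05 by edgeR). It was the one peak still called higher with only confined library 1 kept (1.89, adjusted p 0.0395 by edgeR). Gm46178, 12105.5 bp from the transcription factor gene Batf3, had 11, 38 and 39 counts against 23, 25 and 32 (35.5 ± 4.39 and 143 ± 94.7 CPM), with a log2 fold change of 2.48 (SE 0.35, adjusted p 1.46e-05 by edgeR). Its SD in confined cells came from confined library 3, where 32 counts made the highest CPM, and with confined library 1 alone the adjusted p was 0.535 by edgeR.

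Among the remaining named peaks that rose, Gm34349 inside Bcar3, an adaptor of integrin signalling, had 4, 11 and 6 against 14, 7 and 6 counts, and a log2 fold change of 2.85 (SE 0.57, adjusted p 0.00142 by edgeR). C86187 had 0, 21 and 9 against 15, 9 and 9 counts (2.81, adjusted p 0.00147 by edgeR). 1700127F24Rik, centred 9.5 bp from its start, had 3, 19 and 10 against 13, 8 and 5 counts (11.8 ± 3.15 and 37.8 ± 1.46 CPM), with a log2 fold change of 2.26 (adjusted p 0.00682 by edgeR). Gm41167 inside Tnfrsf19, a receptor of the tumour necrosis factor receptor family, had 4, 21 and 12 against 11, 8 and 8 counts, with 2.17 (adjusted p 0.00825 by edgeR). In all 4 the confined libraries were higher in CPM on at most 15 counts each. LOC108169146, Gm52535 near Nfatc2, Gm52526 inside Hao1 and Gm35582 rose by log2 fold changes of 2.28, 2.08, 1.44 and 1.37 (adjusted p 0.00511, 0.00969, 0.0107 and 0.0109 by edgeR).

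**Figure D5:**
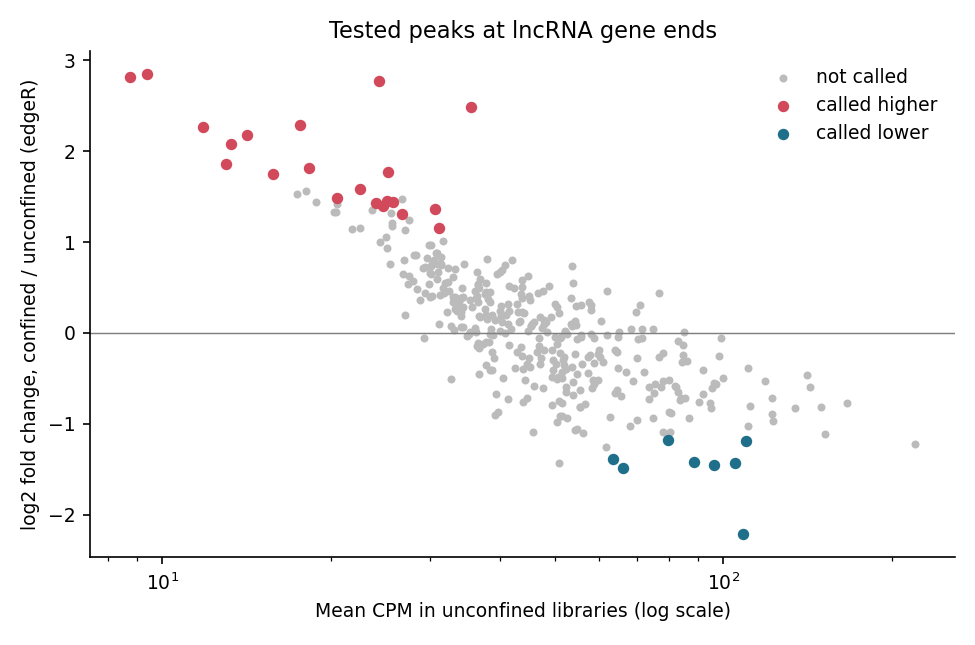
The 386 lncRNA-end peaks tested between groups, 1 point per peak, as mean level in unconfined cells (CPM, log axis) against the log2 fold change, confined over unconfined. The 8 peaks that fell lie at 63.6 to 110 CPM and the 21 that rose at 8.74 to 35.5 CPM, a split that the filter on low counts largely sets.

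Counts of called lncRNA-end peaks depended on the libraries used, and so did those of all peaks. With only confined library 1 kept in its group 1 rose and 1 fell of 1689 tested (0.00793% and 0.0185% of all tested). Leaving out confined library 1 gave 52 that rose and 25 that fell of 429 tested (16.0% and 7.42% of all tested). Without confined library 2 there were 14 and 4 of 612 (1.84% and 0.588%), and without confined library 3 there were 30 and 18 of 570 (6.67% and 4.31%). Without unconfined library 1 there were 16 and 32 of 693 (3.54% and 4.79%), without unconfined library 2 there were 24 and 10 of 462 (6.01% and 2.43%), and without unconfined library 3 there were 7 and 5 of 434 (2.56% and 0.708%). Of the 21 that rose, 5 to 12 were called again in these 6 fits, and of the 8 that fell, 4 to 8. Scaled by total counts only, 12 rose and 95 fell of 386 (3.83% and 25.2% of all tested), and the split of calls turned towards falls at lncRNA ends and elsewhere alike.

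The 12 highest lncRNA-end peaks of unconfined cells, at 112 to 220 CPM, were picked by that level, so their lower values in confined cells are given without a test of direction. 2700012I20Rik, inside Sin3a, the gene of a histone deacetylase scaffold, had 66, 250 and 236 counts in the unconfined and 35, 6 and 3 in the confined libraries (220 ± 18.5 and 51.1 ± 44.7 CPM), and ranked 27 among all peaks. Chaserr, which restrains its neighbour Chd2, a chromatin remodeller gene, had 37, 164 and 145 against 28, 4 and 3 counts (134 ± 13.0 and 41.2 ± 35.5 CPM). In each the level of confined library 1 lay between that of the unconfined libraries and that of confined libraries 2 and 3. The others were 4930554I06Rik, Mir22hg, Gm46052, Gm51544 inside the adhesion receptor gene Adgrg1, Gm31006, Snhg8, D130051D11Rik, Gm33694, Gm40345 and 1700028E10Rik. In none of the 12 did the groups overlap, while 13.2% of all 42632 peaks were lower in all confined libraries. The choice by unconfined level itself favours such an order, so no result is read from it.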

How the data were processed

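Bulk ATAC-seq libraries of sorted LT-HSCs (3 unconfined, 3 confined) were read from a deposited table of raw counts per consensus peak and a list of peak positions. Per the submitters' processing notes the authors used mm10, SAMtools 1.14, R 4.2.0 and featureCounts, while the aligner, the peak caller, removal of duplicates and any shift for Tn5 stand in none of the sources used here and are not stated. Consensus peaks are one set for all libraries, and how it was made is not stated, so peaks of the deeper libraries may be favoured in it. Library totals ran from 128257 to 1229478 counts.

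Gene ends came from the RefSeq table of GRCm38.p6, strand and promoter sequences from the RefSeq promoter table of the same assembly. edgeR 4.0.16 under R 4.3.3 was fitted to all peaks (low counts removed with filterByExpr, TMM over tested peaks, quasi-likelihood test between groups, two-sided, Benjamini-Hochberg over all tested peaks, threshold 0.05). CPM values use counts in all peaks, correlations log2(CPM + 1), and intervals are 95% Clopper-Pearson. Python 3.11.15 with SciPy 1.17.1 and DESeq2 1.42.0 (alternative fit) were used, and the fit was tested on simulated counts. Named are up to 10 called peaks per direction by p, the 12 highest in unconfined cells, and for each listed gene the peak nearest a gene end. Members and lists were chosen with earlier results of these data known. The labels give an experimental batch that pairs the libraries: deviations of paired libraries from their group means correlated at 0.0437, 0.0597 and -0.0470 over all peaks. Alternatives were other scaling, filters, DESeq2, the replicate block, each library left out, other distance limits and, chosen after seeing the data, only confined library 1 kept in its group.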

Additional observations from a re-analysis of the deposited data

How the results depend on the processing

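The median level of lncRNA-end peaks in unconfined cells moved by less than the spread between libraries under every alternative run for it. So did the ratio of high to low lncRNA-end peaks, except with only confined library 1 kept. There the confined ratio was 2.49, beside 1.55 ± 0.815 over all 3 confined libraries. The number of lncRNA-end peaks that rose (21) or fell (8) did not hold: with DESeq2 3 fell, with a mean count of at least 20 it was 2 and 1, without a filter 17 rose (5 of them among the 21) and 80 fell, with total counts 12 rose and 95 fell with a median log2 fold change of -0.60, and with only confined library 1 kept it was 1 and 1. The replicate block left 18 that rose and 3 that fell. With DESeq2, 5.18% rose and 0.777% fell of the lncRNA-end peaks tested, beside 4.99% and 0.848% of all peaks tested. With a mean count of at least 20 these shares were 0.877% and 0.439%, beside 0.498% and 0.0712%. Without a filter they were 0.898% and 4.23%, beside 1.47% and 4.27%. With total counts they were 3.11% and 24.6%, beside 3.83% and 25.2%. Leaving out each library gave 7 to 52 that rose and 4 to 32 that fell, with a median of -0.0871 to 0.0421. A limit of 0.5 kb gave 4 that fell, 2 kb gave 36 that rose, and a distance over 5 kb from coding ends gave 3 that fell. The difference in share was -0.0509 points with 0.5 kb, 0.314 with 2 kb and 0.225 with over 5 kb. Of the 19 called peaks followed (18 by the rule and the second of Trp53cor1), 14 stayed called with the replicate block and 13 with DESeq2. 4 listed peaks changed sign. Snhg16 had a log2 fold change of 0.11 with a mean count of at least 20. Epb41l4aos had -0.98 with only confined library 1 kept, -0.29 without a filter, -0.11 with total counts, -0.17 without confined library 2 and -0.06 without unconfined library 1. Dancr had -0.71 without a filter, -0.48 with total counts, -1.04 without confined library 1, -0.38 without unconfined library 1 and -0.01 without unconfined library 3. Kcnq1ot1 had -0.0158 with only confined library 1 kept, -0.66 without a filter, -0.44 with total counts, -0.57 without confined library 1, -0.30 without unconfined library 1 and -0.06 without unconfined library 3. With each library left out in turn Epb41l4aos ran from -0.17 to 0.26, Dancr from -1.04 to 0.20 and Kcnq1ot1 from -0.57 to 0.18. The cause was not tested. At these depths a peak under about 31.0 CPM in most libraries was not tested for a difference at all.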

Other observations

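By position of the peak midpoint along the gene, 311 lncRNA-end peaks lay 250 to 0 bp before a listed start site and 299 lay 0 to 250 bp after it. Their relative abundance was 1.12 and 1.07 in unconfined cells and 1.01 and 1.03 in confined cells. On chromosome 13 the lncRNA-end peaks were 108 of 1951 peaks (5.54%), the highest share of any chromosome.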
